A study of Mus musculus with 9 samples.

Results

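The Frizzled family comprises the genes Fzd1 to Fzd10, and all 10 were found by symbol among the 57010 genes of the count table. RNA was sequenced from the cortices of 9 single mouse embryos at E12.5, with 3 embryos per genotype, and each library is one embryo. Control embryos (Ctrl) carry the genotype label WT, and the labels do not say whether they carried Cre. Cnot3 cKO embryos lost both floxed copies of Cnot3, which encodes a subunit of the CCR4-NOT deadenylase complex, through Emx1-Cre. Cnot3;Trp53 dcKO embryos also lost floxed Trp53, the gene of p53, through the same Cre. Emx1-Cre acts in radial glial cells (RGCs) of the dorsal telencephalon and in their progeny, so blood vessels, meninges and microglia in the same tissue keep their alleles. The comparisons ask whether the low Fzd9 mRNA of the mutants was particular to that receptor or was shared by its relatives.

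Frizzled proteins are receptors with 7 membrane-spanning segments, and an extracellular cysteine-rich domain binds Wnt ligands. Together with the co-receptors Lrp5 and Lrp6 they recruit Dishevelled and stabilise β-catenin, which acts with Tcf/Lef factors in the nucleus. Fzd3 and Fzd6 also serve planar cell polarity and axon guidance, and Fzd4 binds norrin in blood vessels. In the early cortex, Wnts from the cortical hem at its medial edge pattern the hippocampal field and keep progenitors dividing.

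Libraries held between 21193798 and 45073349 counted reads. Cnot3 was at 98.2 to 117.3 CPM (counts relative to library size, scaled by TMM factors) in Ctrl, 14.6 to 17.3 in cKO and 7.33, 48.2 and 19.0 in dcKO replicates 1, 2 and 3. Trp53 was at 15.1, 110.4 and 20.6 CPM in the same dcKO embryos, against 214.8 to 253.8 in Ctrl. The dcKO embryo numbered 2 thus kept the most of both targeted transcripts, and values without it are given beside several results below. Summed markers of radial glia (2795.0 to 3199.3 CPM in Ctrl, 2736.3 to 3300.1 in cKO, 2837.7 to 3158.5 in dcKO), intermediate progenitors and neurons overlapped between genotypes, and every gene of these lists was read in each group. The intermediate progenitor sum was 370.5 to 463.0 CPM in Ctrl, 345.6 to 416.5 in cKO and 326.6 to 613.7 in dcKO, and the neuronal sum 1014.5 to 1405.3, 702.5 to 1126.2 and 502.6 to 1137.0. Single markers did separate. In cKO, 4 of 8 radial glia markers were lower without overlap (Pax6, Hes1, Hes5 and Nes) and Vim was higher. Of the intermediate progenitor markers 2 of 4 (Btg2 and Neurog1) and of the neuronal ones 2 of 6 (Tubb3 and Dcx) were lower, where 28.0% of all tested genes were lower and 29.2% higher. The other neuronal markers overlapped in cKO, with log2 fold changes of 0.82 for Neurod6, 0.27 for Tbr1, 0.03 for Stmn2 and -0.58 for Neurod2. In dcKO, Nes alone of these markers was lower without overlap and 0 were higher (11.2% and 15.6% of all genes). Nes was at 1029.8 to 1085.4 CPM in Ctrl, 568.3 to 753.3 in cKO and 561.9 to 958.2 in dcKO, and Vim at 1159.0 to 1495.9, 1658.6 to 2029.9 and 1255.0 to 2018.7. DESeq2 called Hes5 alone among the radial glia markers in cKO (DESeq2 adjusted p = 0.00543). The part of these differences in the Frizzled levels was not tested. A member below is called if its adjusted p is under 0.05 and its log2 fold change exceeds 1 in size, with edgeR's quasi-likelihood test over all 13680 genes that had more than 10 reads in every embryo. Of the Frizzled genes, 9 entered this test and Fzd5 did not, with 4 to 55 reads per embryo.

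All 10 receptors share a short motif just after the last membrane segment, a lysine and a threonine followed by 3 residues of any kind and a tryptophan, which docks Dishevelled. A search of the translated coding sequences found it once in each member. It is shown because it is the contact of every member to the common pathway. In Fzd9 it lies at residues 533 to 538 of 592. The 18 bases below are in coding orientation from GENCODE M21 on GRCm38. Capitals mark the codons of the lysine, the threonine and the tryptophan.
Fzd9 (chr5:135249416-135249433, minus strand): AAGACTtttcagactTGG
Fzd10 (chr5:128602796-128602813, plus strand): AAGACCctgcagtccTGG
Fzd1 (chr5:4755706-4755723, minus strand): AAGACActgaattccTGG
Fzd2 (chr11:102606373-102606390, plus strand): AAGACActgcactcgTGG
Fzd7 (chr1:59484607-59484624, plus strand): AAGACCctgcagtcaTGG
Fzd3 (chr14:65212107-65212124, minus strand): AAGACAtgctttgaaTGG
Fzd6 (chr15:39033949-39033966, plus strand): AAGACGtgcacagaaTGG

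Fzd9 is closest in protein sequence to Fzd10 (63.6% identical residues), Fzd1 to Fzd2 (70.8%), Fzd2 to Fzd7 (77.5%), Fzd5 to Fzd8 (60.0%) and Fzd3 to Fzd6 (48.4%). Even so, 0 of the 1727 stretches of 50 bases in the Fzd9 coding sequence occur in the coding sequence of another member, and the same holds for the other 9. Fzd9 (ENSMUSG00000049551.3, chromosome 5 from 135248938 to 135251230 of GRCm38, minus strand) has its coding isoform in 1 exon, as do Fzd1, Fzd2, Fzd7, Fzd8 and Fzd10. Fzd3 and Fzd6 have 7 exons each.

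In Ctrl cortices, Fzd2, Fzd1, Fzd3 and Fzd8 were the most abundant receptors per length. Mean levels per kilobase of exon were 31.9 ± 8.09 CPM (SD, n = 3) for Fzd2, 26.3 ± 2.59 for Fzd1, 22.1 ± 0.593 for Fzd3 and 19.7 ± 4.5 for Fzd8. Fzd9 ranked 5 of 10 with 13.3 ± 5.04 and Fzd7 ranked 6 with 10.9 ± 0.677. Neighbours in this order overlapped between Fzd2 and Fzd1 and from Fzd3 through Fzd8 and Fzd9 to Fzd7. Fzd6 (3.00 ± 0.261), Fzd4 (2.25 ± 0.397) and Fzd10 (2.12 ± 0.226) formed a lower tier, in which Fzd6 lay above both others in every embryo. Fzd5, a receptor of the developing eye, had few reads, at 0.110 ± 0.0939 CPM per kilobase.

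In both mutants Fzd9 left the abundant tier. It ranked 9 of 10 in cKO with 1.99 ± 1.02 CPM per kilobase, overlapping only with Fzd4 among its neighbours in the order. In dcKO it ranked 7 of 10 with 3.98 ± 2.04, overlapping with Fzd6 above it and Fzd4 below it. By mean level Fzd3 took first place in both mutants, at 18.4 ± 1.90 in cKO and 27.0 ± 14.5 in dcKO. In dcKO it overlapped with Fzd2. In dcKO replicate 3, Fzd3 (12.9) lay below Fzd2 (29.4), Fzd8 (19.3), Fzd1 (14.4) and Fzd7 (13).

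**Figure D1:**
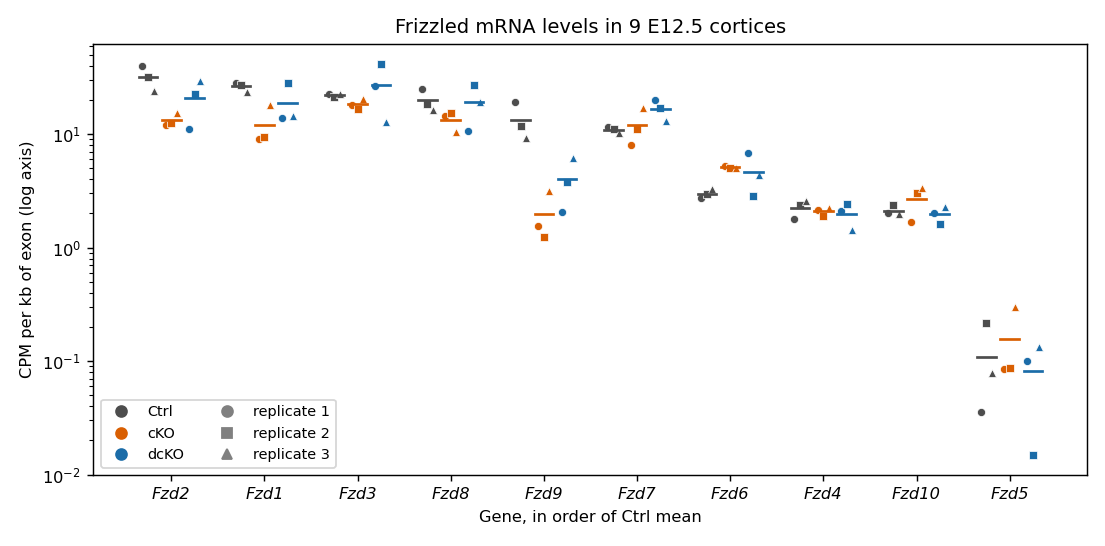
Level of each Frizzled mRNA in CPM per kilobase of exon (log axis) in 9 embryos, genes ordered by the Ctrl mean. Symbols are embryos (shape gives the replicate number), bars are genotype means, and Fzd9 drops from 9.26 to 19.0 in Ctrl to 1.25 to 3.16 in cKO and 2.06 to 6.12 in dcKO.

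Fzd9 showed the lowest levels relative to control in cKO cortices. The gene encodes a Wnt receptor that is typical of the medial cortical wall and the hippocampal field. Ctrl replicates 1, 2 and 3 had 43.5, 27.0 and 21.2 CPM, and the cKO embryos had 3.58, 2.86 and 7.24 CPM. Every cKO embryo thus lay below every control, and the mean was 6.71-fold lower. The log2 fold change was -2.75 (standard error 0.50), with an edgeR adjusted p of 0.0509 that just missed the threshold and a DESeq2 adjusted p of 4.12e-06. An exact two-sided permutation test gave p = 0.10, the smallest that 3 embryos against 3 allow. Only 2 of the 13680 tested genes had a lower log2 fold change in cKO, including Cnot3 itself (-2.78, edgeR adjusted p = 0.0509). Because the tissue was sequenced in bulk, fewer cells with the transcript and less transcript per cell cannot be told apart. The edgeR call depended on the dcKO embryos that share the model. It was made without any one of them (adjusted p = 0.0130, 0.0113 and 0.0051 in edgeR without dcKO replicates 1, 2 and 3), and not made without any one Ctrl or cKO embryo (edgeR adjusted p from 0.13 to 0.211). DESeq2 called Fzd9 whichever of the 9 embryos was left out, with a largest DESeq2 adjusted p of 0.00218.

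Fzd2 and Fzd1, the most abundant members per kilobase in Ctrl, were also lower in every cKO embryo than in every control. Fzd2 had 146.5, 117.3 and 87.2 CPM in Ctrl and 44.2, 46.2 and 55.6 in cKO, a log2 fold change of -1.27 (standard error 0.33). Fzd1 had 118.9, 114.2 and 98.1 CPM in Ctrl and 38.2, 39.5 and 75.1 in cKO, a log2 fold change of -1.12 (standard error 0.34). Neither was called by edgeR (adjusted p = 0.0580 for Fzd2 and 0.0771 for Fzd1), while both passed in DESeq2 (adjusted p = 0.00546 and 0.0198). As for Fzd9, edgeR called Fzd2 without dcKO replicate 1, 2 or 3 (edgeR adjusted p = 0.0148, 0.0336 and 0.00799), and Fzd1 without replicate 2 or 3 (0.0201 and 0.0202 in edgeR). It also called both with only the Ctrl and cKO embryos in the model (edgeR adjusted p = 2.91e-04 and 0.0026). The DESeq2 calls depended on which embryos were included. Fzd1 lost its call without Ctrl replicate 1, 2 or 3 (DESeq2 adjusted p = 0.128, 0.108 and 0.0544) and without cKO replicate 1 or 2 (0.148 and 0.135 in DESeq2). Fzd2 lost it without Ctrl replicate 1 or 2 (DESeq2 adjusted p = 0.0899 and 0.0508) and without cKO replicate 1 or 2 (0.0605 and 0.0526 in DESeq2). Of the cKO embryos, replicate 3 had the highest level of all 3 genes, and Ctrl replicate 1 was the highest control for each.

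Fzd8 and Fzd3 separated from control by smaller steps. Fzd8, a close relative of Fzd5 and a receptor of the forebrain ventricular zone, had 148.1, 109.1 and 96.6 CPM in Ctrl and 85.3, 90.7 and 62.6 in cKO (log2 fold change -0.57, standard error 0.32, edgeR adjusted p = 0.275). Fzd3, needed for axon tract formation, had 288.2, 274.5 and 287.1 CPM in Ctrl and 229.5, 214.1 and 261.8 in cKO (log2 fold change -0.27, standard error 0.33, edgeR adjusted p = 0.636). For both, no cKO embryo reached the lowest control, by a narrow margin.

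Fzd6 went the other way. This partner of Fzd3 in planar polarity had 13.2, 14.4 and 15.7 CPM in Ctrl and 25.4, 24.4 and 24.1 in cKO, and every cKO embryo lay above every control. The log2 fold change was 0.77 (standard error 0.30, edgeR adjusted p = 0.139, DESeq2 0.0844). Fzd7 (log2 fold change 0.14, standard error 0.27), Fzd10 (0.34, standard error 0.32) and Fzd4 (-0.10, standard error 0.27) overlapped with control. The 95% intervals of these log2 fold changes ran from -0.46 to 0.74 for Fzd7, -0.38 to 1.06 for Fzd10 and -0.70 to 0.50 for Fzd4.

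In all, 5 of 9 members were lower without overlap in cKO and 1 was higher, where 28.0% and 29.2% of all tested genes were. At an unadjusted edgeR p under 0.05, 3 members were lower (11.7% of all genes) and 1 was higher (15.3%). edgeR called 0 members in either direction (0% of all genes lower and 0.0146% higher), and DESeq2 called Fzd9, Fzd2 and Fzd1 lower (3.87%) and 0 members higher (4.94%). The targeted gene Cnot3 was not called by edgeR in cKO either (log2 fold change -2.78, edgeR adjusted p = 0.0509). The median log2 fold change of the 9 members was -0.27, and -0.18 without Fzd9, against 0.01 over all tested genes. Without Ctrl replicate 1, Fzd4 was also lower without overlap (31.3% of all genes). Without cKO replicate 1, Fzd10 joined Fzd6 as higher without overlap (31.6% of all genes).

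In dcKO cortices Fzd9 was again the lowest member. The dcKO embryos, compared with the same 3 controls, had 4.72, 8.66 and 14.0 CPM in replicates 1, 2 and 3. All lay below the lowest control at 21.2 CPM, and the mean was 3.35-fold lower. The log2 fold change was -1.75 (standard error 0.48, edgeR adjusted p = 0.0610, DESeq2 0.00411), and 50 of the tested genes had a lower one. Without dcKO replicate 3, the embryo with the most Fzd9, it was -2.19 and was called (edgeR adjusted p = 0.00361). Without dcKO replicate 2, which kept the most Cnot3, it was -1.71 (edgeR adjusted p = 0.0680). In DESeq2, leaving out Ctrl replicate 1 moved Fzd9 to -1.43 and ended the call (DESeq2 adjusted p = 0.0863).

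The other receptors were more uneven among dcKO embryos. Fzd2 had 40.6, 82.2 and 107.8 CPM and Fzd1 58.5, 119.2 and 60.3 in replicates 1, 2 and 3, so 1 embryo of each reached the control range or above. Their log2 fold changes were -0.61 (standard error 0.32, edgeR adjusted p = 0.237) for Fzd2 and -0.48 (standard error 0.33, edgeR adjusted p = 0.358) for Fzd1. Single embryos moved both values. Fzd2 was at -0.30 without dcKO replicate 1 and -0.93 without dcKO replicate 3 (edgeR adjusted p = 0.529 and 0.0234), the latter still under the fold limit. Fzd1 was at -0.30 without dcKO replicate 1 (edgeR adjusted p = 0.68), -0.31 without replicate 3 (0.452 in edgeR) and -0.89 without replicate 2 (0.0623 in edgeR and 0.0163 in DESeq2). Limma with sample quality weights, which called Fzd2 in dcKO, put it at -1.34 (limma adjusted p = 7.45e-04). Fzd3 had 338.1, 535.6 and 165.0 CPM and Fzd8 63.3, 162.7 and 115.3, with values on both sides of control. Replicate 2 stood highest for Fzd1, Fzd3 and Fzd8 and lowest for Fzd6 among the dcKO embryos.

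Fzd7 was the only member above control in every dcKO embryo. This receptor, a close relative of Fzd2 with roles in stem cells, had 52.0, 50.2 and 46.0 CPM in Ctrl and 91.0, 77.0 and 59.0 in dcKO. This is a log2 fold change of 0.62 (standard error 0.27) with an unadjusted edgeR p of 0.0458 and an adjusted one of 0.164. Fzd6 had 33.0, 13.6 and 20.8 CPM in dcKO (log2 fold change 0.64, standard error 0.30, edgeR adjusted p = 0.189), and replicate 2 alone lay in the control range. Without that embryo the log2 fold change was 0.90 (edgeR adjusted p = 0.0273), still under the fold limit, and without dcKO replicate 1 it was 0.25 (edgeR adjusted p = 0.591). Limma with sample quality weights called Fzd6 higher in dcKO, at 1.04 (limma adjusted p = 9.97e-04). Fzd4 (-0.18, standard error 0.27) and Fzd10 (-0.11, standard error 0.32) overlapped with control.

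In dcKO 1 of 9 members was lower without overlap and 1 was higher, against 11.2% and 15.6% of all tested genes. At an unadjusted edgeR p under 0.05, the same counts of members held against 11.2% and 18.0% of all genes. edgeR called 0 members (0% of all genes in either direction) and DESeq2 called Fzd9 lower (3.79%) and 0 members higher (4.66%). Nor did edgeR call the targeted genes in dcKO, Cnot3 at -2.11 (edgeR adjusted p = 0.0529) and Trp53 at -2.27 (0.0605 in edgeR). Without dcKO replicate 2, Fzd1 and Fzd9 were lower and Fzd6 and Fzd7 higher without overlap, where 20.1% and 25.2% of all genes were. Without dcKO replicate 3, Fzd2 and Fzd9 were lower and Fzd3 and Fzd7 higher (30.7% and 32.3% of all genes), and without Ctrl replicate 3, Fzd2 and Fzd9 were lower (16.8%). The median log2 fold change of the members was -0.11 against 0.11 over all tested genes.

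Tested directly, dcKO and cKO could not be separated for any member. Fzd9 was 1.00 higher on the log2 scale in dcKO (standard error 0.48, edgeR adjusted p = 0.889), with a 95% interval from -0.07 to 2.06. It was 0.55 without dcKO replicate 3, 1.47 without cKO replicate 3, and 0.37 in limma with sample quality weights. The groups overlapped, since cKO replicate 3 with 7.24 CPM exceeded dcKO replicate 1 with 4.72. Log2 differences were 0.66 (standard error 0.32) for Fzd2, 0.64 (0.33) for Fzd1, 0.56 (0.33) for Fzd3 and 0.52 (0.32) for Fzd8, each with an edgeR adjusted p of 0.889. Without dcKO replicate 2 the Fzd1 difference was 0.22, and without dcKO replicate 3 that of Fzd2 was 0.34. No member was free of overlap in either direction, where 3.63% of all tested genes were lower and 2.62% higher, and edgeR (0.0146% of all genes lower, 0% higher) and DESeq2 (0.351% lower, 0.0292% higher) called 0 members. At an unadjusted p under 0.05 edgeR also had 0 members (2.38% of all genes lower, 2.05% higher). The count without overlap rested on single embryos. Fzd1, Fzd7 and Fzd9 were higher in dcKO than in cKO without cKO replicate 3 (5.5% of all genes), and Fzd2, Fzd8 and Fzd9 were without dcKO replicate 1, where Fzd6 was lower (7.74% higher, 8.86% lower). Fzd3 and Fzd7 were higher without dcKO replicate 3 (25.4%), and Fzd10 was lower without cKO replicate 1 (4.52%).

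**Figure D2:**
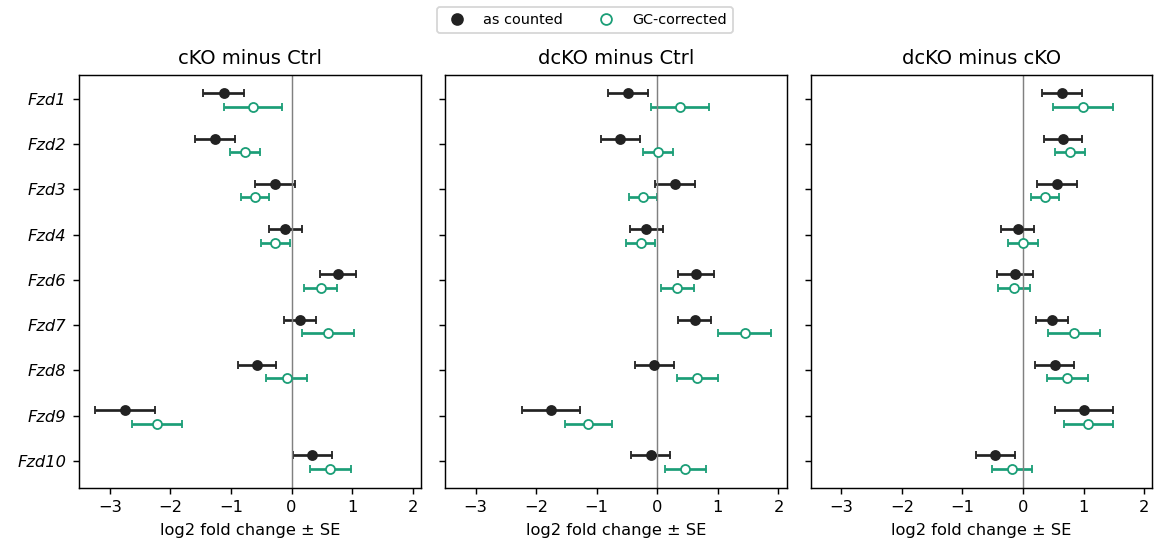
Log2 fold change (x axis) of the 9 tested Frizzled genes in 3 comparisons, with bars of 1 standard error. Black points are the counts as deposited and open points follow a correction for coding GC content, under which Fzd9 stays lowest at -2.22 in cKO and -1.14 in dcKO.

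The ratio of 2 receptors within an embryo does not depend on library scaling, so Fzd9 was set against each other member in turn. In cKO the log2 ratio of Fzd9 to its partner was lower than in control, without overlap, for 8 of 8 partners. The difference was smallest against Fzd2 (-1.56) and Fzd1 (-1.61) and largest against Fzd6 (-3.57) and Fzd10 (-3.08). The ratio to Fzd2 was -1.75, -2.12 and -2.04 in Ctrl, and -3.63, -4.01 and -2.94 in cKO. Fzd9 therefore stood lower even relative to the members that were lowest after it. Each of these 8 differences had an exact two-sided permutation p of 0.10, the smallest possible, among 24 such tests over 3 comparisons, so none could pass 0.05. Nor was the result particular to the family, since Fzd9 was lower in the same way against 98.5% of all other tested genes.

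In dcKO the ratio was lower without overlap for 5 of 8 partners (Fzd2, Fzd6, Fzd7, Fzd8 and Fzd10), against 74.3% of all other tested genes. It was higher against 0 partners, where 0.00731% of all other genes were. Differences ran from -1.13 against Fzd2 to -2.41 against Fzd7. Against Fzd1, Fzd3 and Fzd4 the groups overlapped through dcKO replicate 3, whose ratio to Fzd3 was -3.56 where controls had -2.73, -3.34 and -3.76. Without that embryo 8 of 8 partners separated (88.3% of all other genes), and also 8 without Ctrl replicate 3 (85.5%). Between dcKO and cKO, the ratio was higher in dcKO without overlap against Fzd10 alone (9.46% of all other genes) and lower against 0 partners (0.00731%).

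The same count was made for every receptor and is given beside the share of all other tested genes against which that receptor separated in the same direction. In cKO, Fzd2 was lower against 6 of 8 partners (82.9% of all other genes) and Fzd1 against 5 (69.9%), while Fzd6 was higher against 6 (72.4%). Fzd3 (12.1%), Fzd4 (14.7%), Fzd7 (15%) and Fzd10 (18.3%) were higher against 3 partners each, Fzd8 (4.58%) against 2, and Fzd1 (0.256%) and Fzd2 (0.599%) against 1, which was Fzd9. Fzd3 (43.5%), Fzd4 (24.7%) and Fzd8 (47.4%) were each lower against 1. In dcKO, Fzd7 was higher against 5 partners (32.2%), Fzd6 against 2 (19.6%), and Fzd2 (2.7%), Fzd8 (6.09%) and Fzd10 (8.4%) against 1 each. Fzd2 (14.2%), Fzd1 (31.7%) and Fzd4 (21.8%) were lower against 1 each, and Fzd10 against 2 (14.5%). Fzd9 was the member lower against the most partners in both mutants, and also against the largest share of all other genes. The question about Fzd9 came from earlier results of these data, and its log2 fold change was the lowest of the family in both mutants. This ranking is therefore not separate evidence.

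**Figure D3:**
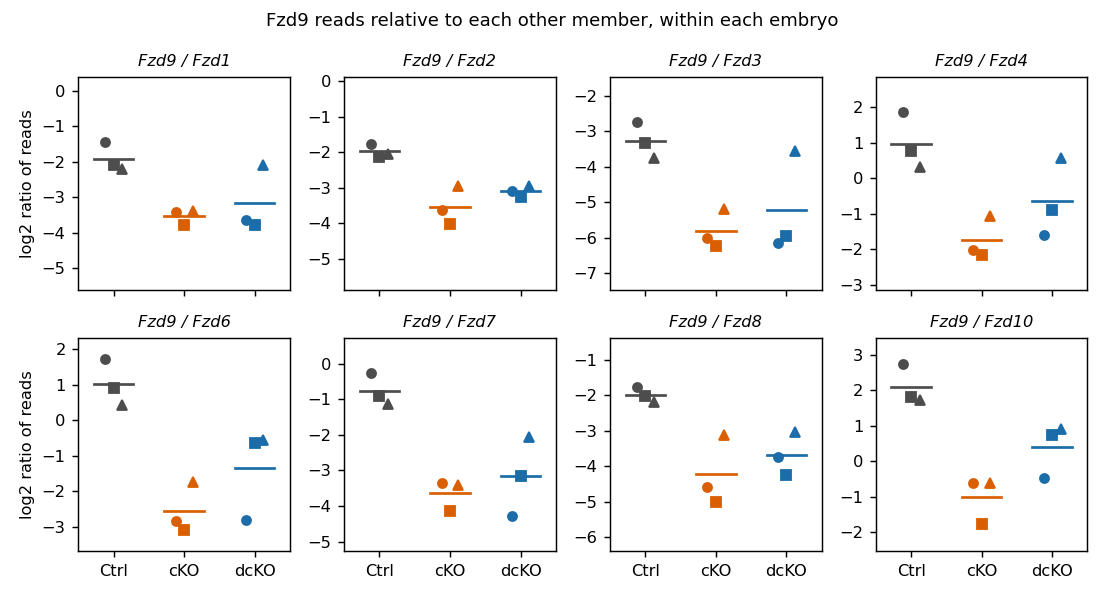
Log2 ratio of Fzd9 reads to the reads of each other tested member within each embryo (y axes all span 6 log2 units, centred per panel). Symbols are embryos, with shape for the replicate number as in the plot of levels, and bars are genotype means. All 8 panels separate cKO from Ctrl, with differences from -3.57 to -1.56, and dcKO replicate 3 (triangle) reaches the controls against Fzd1, Fzd3 and Fzd4.

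As a share of all Frizzled reads, Fzd9 made up 5.25%, 3.69% and 3.14% in Ctrl replicates 1, 2 and 3. The shares were 0.740% (98 of 13237 reads, 95% Wilson interval 0.608 to 0.901), 0.583% and 1.22% in cKO, and 0.726%, 0.849% and 2.51% in dcKO. These intervals cover counting error only, and the spread between embryos exceeded them. Per kilobase, the Fzd9 share was 9.90 ± 2.23% in Ctrl (SD, n = 3), 2.37 ± 0.862% in cKO and 3.55 ± 2.07% in dcKO. Fzd2 gave 24.0 ± 2.64% in Ctrl, 16.4 ± 0.394% in cKO and 18.4 ± 8.88% in dcKO, and Fzd1 gave 20.1 ± 1.32%, 14.6 ± 3.67% and 15.9 ± 2.90%. Mean shares were larger in both mutants for Fzd7 (8.34 ± 0.751% in Ctrl, 14.5 ± 3.38% in cKO and 15.1 ± 5.23% in dcKO), Fzd3 (17 ± 2.58%, 22.8 ± 1.82% and 22.9 ± 8.99%) and Fzd6 (2.33 ± 0.545%, 6.40 ± 1.04% and 4.43 ± 2.66%). They were also larger in both mutants for Fzd10 (1.63 ± 0.271% in Ctrl, 3.28 ± 0.855% in cKO and 1.80 ± 0.624% in dcKO) and Fzd8 (14.9 ± 1.19%, 16.9 ± 5.1% and 16.1 ± 4.3%). The Fzd4 share was 1.76 ± 0.547%, 2.61 ± 0.328% and 1.74 ± 0.434%. In every cKO embryo the shares of Fzd7, Fzd3, Fzd6, Fzd10 and Fzd4 lay above every control, while Fzd8 overlapped. The level of Fzd3 lay below every control in cKO. Shares within an embryo add up to a fixed total, so a larger share need not mean a higher level. Summed over the family, 113.1 to 152.7 CPM per kilobase were present in Ctrl, 72.1 to 95 in cKO and 95.2 to 147.5 in dcKO.

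**Figure D4:**
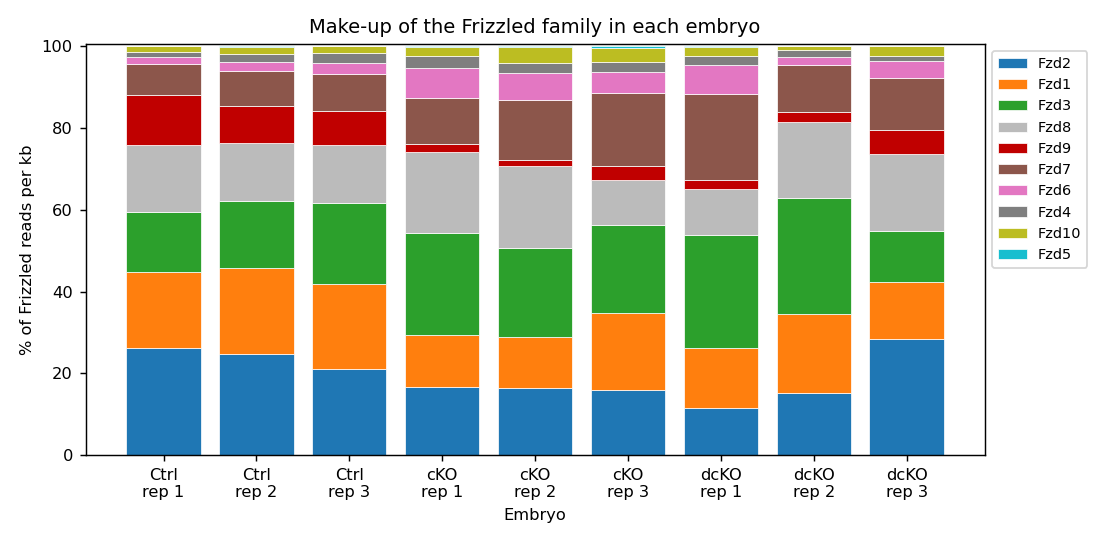
Make-up of the family in each embryo, as the percentage of Frizzled reads per kilobase of exon (y axis, adding to 100) that each gene contributes. The Fzd9 band (red) covers 8.19% to 12.4% in Ctrl, 1.64% to 3.32% in cKO and 2.16% to 5.93% in dcKO.

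GC content moved with the log2 fold changes of all genes. The 3029 tested genes with at most 48.2% coding GC had a median log2 fold change of 0.27 in cKO and 0.53 in dcKO, and the 3028 genes with at least 57.3% had medians of -0.39 and -0.42. Fzd8 (64.9% GC), Fzd2 (63.1%), Fzd1 (62.4%), Fzd7 (61.8%), Fzd9 (61.8%) and Fzd10 (58.9%) lie in the GC-rich set, and Fzd3 (46.3%) lies in the GC-poor one. With each embryo corrected for coding GC, a step added after seeing the data, Fzd9 was at -2.22 in cKO (standard error 0.41, edgeR adjusted p = 0.0312), which was called (with the replicate block as well, -2.29 and not called, edgeR adjusted p = 0.0759), and at -1.14 in dcKO (standard error 0.39, edgeR adjusted p = 0.0958). In cKO, Fzd2 and Fzd1 moved to -0.77 (edgeR adjusted p = 0.0674) and -0.63 (0.376 in edgeR). There Fzd3 was at -0.61, Fzd4 at -0.27, Fzd8 at -0.08, Fzd6 at 0.48, Fzd7 at 0.60 and Fzd10 at 0.64. Fzd3 thus stood lower than Fzd8 after the correction. In dcKO, Fzd2 and Fzd1 moved to 0.01 and 0.37. In dcKO, Fzd8, Fzd10 and Fzd3 also changed sign with the correction, and Fzd7 reached 1.44 without being called (edgeR adjusted p = 0.0744).

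The embryo codes hold a further number that some embryos share. What it stands for is not stated. Within such pairs, the log2 ratio of mutant to control for Fzd9 was -3.93 (cKO replicate 2 to Ctrl replicate 1), -1.90 (cKO replicate 3 to Ctrl replicate 2) and -0.60 (dcKO replicate 3 to Ctrl replicate 3). Fzd9 was the lowest member in both cKO pairs, followed by Fzd2 at -1.66 and -1.08. In the dcKO pair Fzd4 (-0.86), Fzd3 (-0.80) and Fzd1 (-0.70) were lower than Fzd9.

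The nearest protein-coding neighbour of Fzd9, Baz1b, a chromatin remodelling kinase 2808 bases away on GRCm38, had 372.7 to 427.3 CPM in Ctrl, 313.1 to 353.4 in cKO and 328.0 to 447.5 in dcKO. It was thus lower in every cKO embryo than in every control, while dcKO overlapped, with log2 fold changes of -0.23 and -0.07 (edgeR adjusted p = 0.394 and 0.803). Fkbp6 on the other side, 40473 bases away, had at most 0.111 CPM in any embryo. Over the 9 embryos and all tested genes, the pattern of log2 CPM most like that of Fzd9 belonged to Nfix (root-mean-square difference 0.421 after centring each gene), Insyn1 (0.459), AI849053 (0.475), Hes5 (0.502) and Acvr2b (0.507). Nfix had 174.2 to 350.1 CPM in Ctrl, 51.2 to 62.1 in cKO and 51.1 to 119.9 in dcKO. Hes5, a Notch target of radial glia, had 22.0 to 37.8, 6.75 to 10.9 and 5.08 to 28.1. The nearest family member was Fzd2 (0.712), and the most distant was Fzd6 (1.66).

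Among the 19 Wnt ligand genes, 7 were tested, 11 had too few reads and Wnt1 had none. Wnt7b, the most abundant per length in Ctrl, had 116.6 to 173.7 CPM in Ctrl, 74.4 to 98.5 in cKO and 39.3 to 83.1 in dcKO. The log2 fold changes of Wnt7b were -0.81 and -1.19, with edgeR adjusted p-values of 0.101 and 0.0507, and DESeq2 called it in dcKO alone (DESeq2 adjusted p = 0.00206). Wnt2b, a hem ligand, was higher in every mutant embryo, at 0.433 to 5.85 CPM in Ctrl, 8.57 to 27.2 in cKO and 6.46 to 26.3 in dcKO (log2 fold changes 2.69 and 2.36, edgeR adjusted p = 0.0802 and 0.0969). Wnt7a was at -0.80 and -0.94, Wnt8b at 0.59 and 0.50 and Wnt9a at 1.60 and 1.02. At an unadjusted edgeR p under 0.05, 1 ligand was lower and 1 higher in cKO (11.7% and 15.3% of all genes), and 2 lower and 1 higher in dcKO (11.2% and 18.0%). The median of the list was 0.40 in cKO and 0.50 in dcKO, against 0.01 and 0.11 over all tested genes.

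Of the 6 co-receptors and alternative Wnt receptors, 3 were lower at an unadjusted edgeR p under 0.05 in cKO (11.7% of all genes) and 2 in dcKO (11.2%), with 0 higher (15.3% and 18.0%). Their medians were -0.79 and -0.67, below those of the Frizzled genes (-0.27 and -0.11) and of all genes (0.01 and 0.11). Ror2, a tyrosine kinase receptor for Wnt5a, had 55.4 to 96.7 CPM in Ctrl, 18.5 to 26.4 in cKO and 11.7 to 43.9 in dcKO. The log2 fold changes of Ror2 were -1.81 and -1.53, with edgeR adjusted p-values of 0.0515 and 0.0607, and DESeq2 called both (9.51e-04 and 0.00497 in DESeq2). Lrp5 was at -1.28 in cKO and -1.32 in dcKO, Ryk at -0.53 and -0.28, and Ptk7 at -1.05 and -1.07. Among the dcKO embryos, replicate 3 alone lay in the control range for Lrp5 (62.1 CPM) and Ptk7 (129.3 CPM). Lrp6 (-0.18 and 0.15) and Ror1 (0.17 and -0.20) overlapped with control in both mutants. Smo, the Hedgehog transducer and the relative of Frizzleds in the same receptor class, had 230.6 to 271.7 CPM in Ctrl, 112.7 to 144.2 in cKO and 105.1 to 187.1 in dcKO. Smo was lower in every mutant embryo (log2 fold changes -1.05 and -0.75, edgeR adjusted p = 0.0509 and 0.0706).

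The list of genes that act with Fzd4 in norrin signalling or as Wnt7 co-receptors of vessels had 0 of 4 members at an unadjusted edgeR p under 0.05 in cKO (11.7% of all genes lower, 15.3% higher), and 1 lower and 1 higher in dcKO (11.2% and 18.0%). Ndp, which encodes norrin, was at 0.74 in cKO and 1.33 in dcKO (edgeR adjusted p = 0.281 and 0.0799). Adgra2 was at -0.36 and -1.24 (edgeR adjusted p = 0.606 and 0.0910), Tspan12 at 0.14 and 0.55 and Reck at -0.41 and -0.24. Fzd4 itself lay between 9.52 and 17.2 CPM in all 9 embryos. Summed endothelial markers (6 of 6 genes read in each group) ranged from 206.3 to 267.8 CPM in Ctrl, 192.2 to 271.0 in cKO and 128.7 to 140.2 in dcKO. Their part in the Fzd4 levels was not tested.

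Of the secreted inhibitors, 6 of 12 were tested and Dkk4 had no read. Sfrp1, the most abundant, had 725.7 to 892.9 CPM in Ctrl, 305.3 to 403.7 in cKO and 386.9, 1039.9 and 376.6 in dcKO replicates 1, 2 and 3 (log2 fold changes -1.16 and -0.41, edgeR adjusted p = 0.0827 and 0.461). Sfrp2 was at -0.93 and -0.49, Frzb at -0.82 and 0.10, and Dkk3 at 0.97 and 0.93. Here 3 genes were lower at an unadjusted edgeR p under 0.05 in cKO (11.7% of all genes) and 0 in dcKO (11.2%), with 0 higher (15.3% and 18.0%).

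The list of genes that set how much Frizzled protein stays on the surface had members on both sides of control. Rspo2 and Rspo3, secreted proteins that protect Frizzleds from removal, were higher in every mutant embryo. Rspo2 had 0.613 to 12.3 CPM in Ctrl, 24.4 to 96.5 in cKO and 31.0 to 121.2 in dcKO (log2 fold changes 3.27 and 3.22, edgeR adjusted p = 0.0677 and 0.0660). Rspo3 had 11.1 to 22.6 CPM in Ctrl, 34.0 to 106.3 in cKO and 28.8 to 121.6 in dcKO (log2 fold changes 2.09 and 2.07, edgeR adjusted p = 0.0609 and 0.0594). Rspo1 was at 1.51 and 1.19. The cortical hem markers Wnt2b, Wnt3a and Lmx1a and the summed choroid plexus markers were also higher in every mutant embryo. The hem marker Bmp7 was lower, and Bmp4 overlapped with control. Lmx1a was at 2.7 to 6.89 CPM in Ctrl, 12.4 to 32 in cKO and 10.3 to 28.2 in dcKO, and the part of these tissues in the Rspo levels was not tested. Znrf3, the ubiquitin ligase that removes Frizzleds, was at -1.29 in cKO (edgeR adjusted p = 0.0966) and -0.47 in dcKO. In this list 1 of 6 tested genes was lower and 3 were higher at an unadjusted edgeR p under 0.05 in cKO (11.7% and 15.3% of all genes), and 0 and 2 in dcKO (11.2% and 18.0%). Wls, which carries Wnts to the surface, was at 0.92 and 1.11 (edgeR adjusted p = 0.111 and 0.0695), Shisa2, which retains Frizzleds in the cell, at -0.68 and -0.28, and Porcn, which lipidates Wnts, at 0.33 and 0.74.

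The genes of Dishevelled and the destruction complex had medians of -0.38 in cKO and -0.30 in dcKO (0.01 and 0.11 over all genes). Of 11 genes, 3 were lower at an unadjusted edgeR p under 0.05 in cKO (11.7% of all genes) and 1 in dcKO (11.2%), and 0 were higher (15.3% and 18.0%). Ctnnb1, encoding β-catenin, was at -0.47 and -0.39, Gsk3a at -0.40 and -0.53, Dvl1 at -1.16 and -0.81 and Csnk1a1 at 0.16 and 0.37. Among 8 Tcf/Lef factors and feedback targets, 2 were lower in cKO and 1 in dcKO at that p, with 0 higher, against the same shares of all genes. Lef1, a mediator of Wnt signals in the hippocampal field, had 46.6 to 53.1 CPM in Ctrl, 18.9 to 29.4 in cKO and 19.1 to 44.8 in dcKO (log2 fold changes -1.16 and -0.81, edgeR adjusted p = 0.0655 and 0.130). Axin2, a feedback target held in both lists, was at -0.63 and -0.47, Tcf7l1 at -0.22 and -0.41, Tcf7l2 at -0.55 and -0.57, Nkd1 at -0.43 in both and Sp5 at -1.10 and -0.36.

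Partners of Fzd3 and Fzd6 in planar polarity had members with lower levels in both mutants. Celsr1 and Celsr2, cadherins that hold polarity complexes across cell borders, were lower in every mutant embryo. Celsr1 had 215.0 to 365.2 CPM in Ctrl, 66.2 to 81.2 in cKO and 30.0 to 137.4 in dcKO (log2 fold changes -1.94 and -1.79, edgeR adjusted p = 0.0514 and 0.0529). Celsr2 had 179.3 to 298.2 CPM in Ctrl, 51.2 to 70.5 in cKO and 24.4 to 99.8 in dcKO (log2 fold changes -1.97 and -1.82, edgeR adjusted p = 0.0509 and 0.0511). Vangl2 was at -0.95 and -0.54 (edgeR adjusted p = 0.0520 and 0.143), and Prickle2 at 1.33 and 0.81. At an unadjusted edgeR p under 0.05, 4 of 8 were lower and 1 higher in cKO (11.7% and 15.3% of all genes), and 4 lower and 0 higher in dcKO (11.2% and 18.0%). edgeR called 0 genes of any of these lists in either mutant. Of the 59 tested genes DESeq2 called 7 lower and 4 higher in cKO (3.87% and 4.94% of all genes), and 6 lower and 5 higher in dcKO (3.79% and 4.66%).

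**Figure D5:**
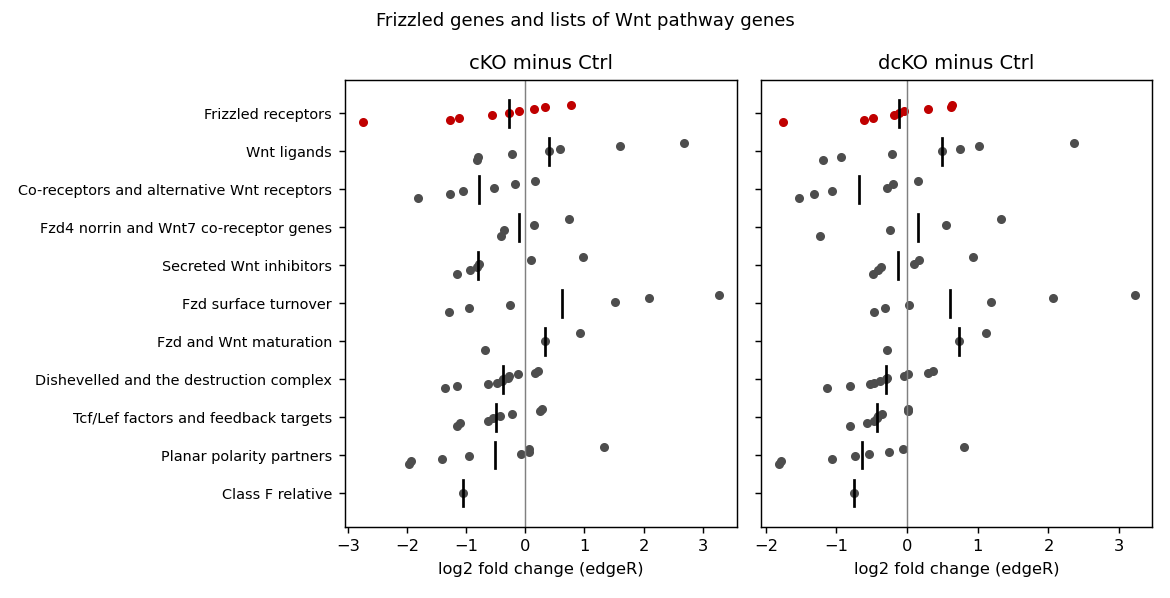
Log2 fold change (x axis) of the tested genes of the Frizzled family (red) and of 10 lists of Wnt pathway genes (grey), each dot a gene and each bar the median of its list. Fzd9 is the lowest dot of any list in cKO at -2.75, while Rspo2 is the highest at 3.27. In dcKO, Celsr2 (-1.82) and Celsr1 (-1.79) lie below Fzd9 (-1.75), and Rspo2 is again the highest at 3.22.

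Markers of other tissues in the dissected piece differed between genotypes. The summed level of 4 choroid plexus markers was 0.612 to 1.29 CPM in Ctrl, with 1 of the 4 at 0 in all controls, 14.0 to 56.3 in cKO and 10.3 to 92.5 in dcKO. The 5 cortical hem markers, which include Wnt2b, summed to 23.9 to 44.5, 32.8 to 95.8 and 30.7 to 72.9. Within that sum Wnt2b, Lmx1a and Wnt3a were higher and Bmp7 was lower in every mutant embryo, while Bmp4 overlapped (log2 fold changes 0.10 and -0.95). Of all tested genes 29.2% were higher and 28.0% lower without overlap in cKO, and 15.6% and 11.2% in dcKO. DESeq2 called Wnt2b and Lmx1a higher and Bmp7 lower in both mutants. It called 4.94% of all genes higher and 3.87% lower in cKO, and 4.66% and 3.79% in dcKO. Wnt3a had too few reads to be tested (0.0721 to 3.83 CPM in Ctrl, 4.34 to 21.5 in cKO and 4.19 to 17.6 in dcKO). Bmp7 was at 18.6 to 25.6 CPM in Ctrl, 6.53 to 12.2 in cKO and 7.97 to 11.3 in dcKO. Summed markers of meningeal fibroblasts (5 of 5 genes read in each group) were at 770.4 to 848.2 CPM in Ctrl, 444.2 to 677.8 in cKO and 315.6 to 511.3 in dcKO, and microglial ones at 34.6 to 42.4, 35.4 to 73.7 and 14.4 to 30.1. Of the fibroblast markers, Col1a1, Col1a2 and Col3a1 were lower without overlap in both mutants (28.0% and 11.2% of all genes). Dcn (log2 fold changes 0.00 and -0.33) and Lum (0.19 and -0.05) overlapped with control. Subpallial markers stayed at or below 0.367 CPM except in dcKO replicate 2 (6.39). Erythroid markers were at 5203.5 to 7170.6 CPM in Ctrl, 6587.0 to 10572.0 in cKO and 3880.0 to 5371.3 in dcKO. The part of these tissues in the levels of Fzd9, its relatives and the pathway genes was not tested.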

How the data were processed

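RNA was sequenced from 9 single-embryo cortices (TruSeq Stranded mRNA, NovaSeq). The authors deposited read counts per gene, not normalized; the submitters' processing notes name FastQC, cutadapt, STAR, featureCounts and the mouse build mm39, with no versions. The strand setting and annotation of the counting are not given in the sources used here. DESeq2, also named there, plays no part in the counts.

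The 13680 of 57010 genes that exceeded 10 reads in each of the 9 libraries were tested with edgeR 4.0.16 (R 4.3.3), using TMM factors and the quasi-likelihood test in 1 model of the 3 genotypes, with Benjamini-Hochberg adjustment over all tested genes. A gene was called when its adjusted p was under 0.05 and its log2 fold change exceeded 1 in size. DESeq2 1.42.0 and limma 3.58.1 were alternatives, together with other filters and factors, a replicate block, a model of 6 embryos and leaving out each embryo. A correction for coding GC content (loess, span 0.3) and further left-out embryos were added after seeing the data. Single values were compared by exact two-sided permutation tests (SciPy 1.17.1). The tests across genes were tested on simulated data. Intervals of fold changes are 95% intervals from the standard error and the t distribution with edgeR's degrees of freedom (10.1).

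Exon lengths, coding sequences, GC content and coordinates came from GENCODE M21 on GRCm38, a build other than that of the counts, and symbols matched 52029 gene identifiers. Identity was computed by global alignment (Biopython 1.88, gap open 11, extend 1). Named genes were all 10 Frizzled genes, Cnot3 and Trp53, from each pathway list up to 3 with the highest Ctrl level per kilobase and up to 4 with the smallest edgeR p, members without a read, the 5 genes most like Fzd9, and its neighbours. The members and lists were chosen with earlier results of these data known. Depth was 21193798 to 45073349 reads per embryo. The embryos are separate animals.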

Additional observations from a re-analysis of the deposited data

How the results depend on the processing

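The order of Fzd9 below every other member held in cKO and dcKO under every alternative below, but the number of calls depended on the tool. With all 9 embryos edgeR called 0 members, 2 genes higher and 0 lower in cKO, 0 in dcKO, and 0 higher and 2 lower in dcKO against cKO, while 3693, 3994 and 605 genes had an unadjusted p under 0.05. The causes of the differences below were not tested.

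DESeq2 called 3 members lower in cKO and 1 in dcKO (Fzd9 at -2.76 and -1.78), with 676 genes higher and 530 lower in cKO, 638 and 519 in dcKO, and 4 and 48 in dcKO against cKO. Limma with voom and sample quality weights called 3 members lower in cKO, and 2 lower and 1, Fzd6, higher in dcKO (Fzd9 at -2.80 and -2.44), with 957 and 911, 1491 and 2177, and 3 and 24 genes. In limma Fzd7 turned to -0.07 in cKO, and in dcKO against cKO Fzd2 turned to -0.04, Fzd6 to 0.25 and Fzd8 to -0.15. With no filter edgeR called 3 members lower in cKO and 1 in dcKO (Fzd9 at -2.81 and -1.84), with 386 and 427, 313 and 379, and 1 and 7 genes. With only the 6 embryos compared it called 3 members lower in cKO (Fzd9 at -2.75) with 945 genes higher and 813 lower, and 0 lower in dcKO against cKO.

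After GC correction 1 member was called lower in cKO (Fzd9 at -2.22), with 356 and 257 genes in cKO, 193 and 97 in dcKO and 5 lower in dcKO against cKO. In dcKO it turned Fzd1 to 0.37, Fzd2 to 0.01, Fzd3 to -0.24, Fzd8 to 0.66 and Fzd10 to 0.46. The genes with a coding GC value alone, uncorrected, gave 1 member lower in cKO (Fzd9 at -2.77), with 210 and 132, and 288 and 106 genes. GC correction with the replicate block called 0 members (Fzd9 at -2.29 in cKO, edgeR adjusted p = 0.0759) and 4 genes higher in cKO and turned Fzd1 to 0.31, Fzd3 to -0.28, Fzd8 to 0.52 and Fzd10 to 0.48 in dcKO.

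Same-numbered embryos did not deviate together (mean correlation -0.169 over 9 pairs, 0.0836 over 18 differently numbered pairs), and 0 of 9 embryos correlated best with their own number, so the replicate number was not taken as a pairing. Each gene was centred within genotype, which ties both mean correlations to each other, so they are not separate observations. The check did not cover the further number in the embryo codes, which was not used as a block. With the replicate block Fzd9 was at -2.90 and -1.87, and 0 genes were called higher in cKO and 0 lower in dcKO against cKO.

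Leaving out each embryo, in edgeR and DESeq2, gave 0 to 3 members lower in cKO and 0 to 1 in dcKO, and Fzd9 from -3.26 to -2.40 in cKO, -2.21 to -1.40 in dcKO and 0.55 to 1.48 in dcKO against cKO. Genes called higher ran from 0 to 870 in cKO, 0 to 1157 in dcKO and 0 to 409 in dcKO against cKO, and those lower from 0 to 824, 0 to 2174 and 0 to 1026. Signs turned (reaching only 0.00 for Fzd4 in dcKO) for Fzd4 (-0.25 to 0.01) and Fzd7 (-0.21 to 0.36) in cKO, for Fzd3 (-0.21 to 0.62), Fzd4 (-0.38 to 0.00), Fzd8 (-0.44 to 0.24) and Fzd10 (-0.25 to 0.02) in dcKO, and for Fzd4 (-0.27 to 0.11) and Fzd6 (-0.55 to 0.13) in dcKO against cKO. The ratio of Fzd9 to Fzd1 (-0.18 to 0.66), Fzd3 (-0.25 to 1.05) and Fzd7 (-0.09 to 1.01) turned in dcKO against cKO.

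With 3 embryos per genotype no single exact test can pass 0.05, and Fzd9 rests on 77 to 1067 reads per embryo and Fzd5 on 4 to 55.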
